A study of Mus musculus with 8 samples.

Results

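Colon tissue from 8 mice was examined for 10 genes of mucus-secreting cells: Bcas1, Fer1l6, Rap1gap, Atp2c2, Hepacam2, Sytl2, Capn9, Best2, Scin and Slfn4. They were picked by name, out of 19065 genes measured, because their RNA had been seen in the same barcodes as Muc2 in an earlier look at these libraries. All 10 had a row in every library's table, though not all were detected in every library. Together they had 1638 unique molecular identifiers (UMIs, the counted RNA molecules) out of 1160832. Their co-detection with Muc2 is therefore the property that chose them and is given as a description. Muc2-positive means at least 1 Muc2 UMI in the barcode.

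The mice were C57BL/6, fed either fish oil and pectin (4 mice) or corn oil and cellulose (4 mice) for 3 weeks, with no transgene or other agent named. Their age and sex are not given in the sources used here. Each mouse gave 1 library from 2 sections, each 50 µm thick, of a rolled paraffin-embedded colon, read with a probe-based single-cell assay for fixed tissue in which pairs of short probes per gene are ligated on the RNA and counted. The titles call the cells colonocytes, while the tissue is given as whole colon, and markers of several cell types were present.

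Goblet cells are the mucus-secreting cells of the colon lining. They pack the gel-forming mucin MUC2 at high calcium and low pH into large granules, dock these under the apical membrane, and release them by regulated exocytosis, after which bicarbonate and water help the mucin unfold. Docking and fusion use small GTPases of the Rab family, their effectors, SNARE proteins and calcium-sensing proteins with C2 domains. Calcium pumps of the Golgi load the granule, and anion channels and transporters supply the fluid around it.

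The libraries differed widely. Fish oil/pectin libraries had 290 to 969 barcodes and 34758 to 200700 UMIs, and corn oil/cellulose libraries had 106 to 5180 barcodes and 81400 to 245476 UMIs. Corn oil/cellulose mouse 1 stood apart as shallow, with a median of 26 UMIs per barcode. In all, 189 droplet barcodes of 16 bases were shared within 2 sets of 4 libraries and 24 between them, and 6 full barcodes of 24 bases were shared between libraries. These sets, read from the data, are called pools: pool 1 held fish oil/pectin mouse 1 and corn oil/cellulose mice 1, 2 and 3, and pool 2 held fish oil/pectin mice 2, 3 and 4 and corn oil/cellulose mouse 4. Every within-pool difference thus rests on 1 mouse of 1 diet. All 9 goblet markers (Muc2, Clca1, Fcgbp, Zg16, Tff3, Agr2, Spink4, Spdef, Retnlb) were detected and took 0.268% to 1.21% of UMIs in fish oil/pectin mice and 0.247% to 1.74% in corn oil/cellulose mice.

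Of the 10 genes, 4 have a single transcription start in the RefSeq promoter table used here, and Rap1gap has 7. Promoter windows are shown for the 2 of those 4 that hold the TATA motif, Hepacam2 and Slfn4, and for Muc2, because these genes share barcodes. Each window runs 5′ to 3′ from 250 bases before the start to 50 after it (RefSeq, GRCm38.p6), and capitals mark TATAAA read on either strand.
Hepacam2 chr6:3494449-3494748 (minus strand): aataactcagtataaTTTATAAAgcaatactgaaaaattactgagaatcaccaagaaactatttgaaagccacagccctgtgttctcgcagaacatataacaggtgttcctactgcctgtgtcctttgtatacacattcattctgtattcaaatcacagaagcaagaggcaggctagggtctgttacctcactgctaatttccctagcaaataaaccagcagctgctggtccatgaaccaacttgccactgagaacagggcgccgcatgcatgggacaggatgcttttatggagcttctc
Slfn4 chr11:83174936-83175235 (plus strand): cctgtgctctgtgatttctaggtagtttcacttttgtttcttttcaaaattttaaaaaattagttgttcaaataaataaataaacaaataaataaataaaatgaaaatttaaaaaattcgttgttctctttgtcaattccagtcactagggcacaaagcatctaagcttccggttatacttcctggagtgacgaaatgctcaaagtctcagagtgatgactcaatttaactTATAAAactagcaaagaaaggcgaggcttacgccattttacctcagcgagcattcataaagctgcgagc
Muc2 chr7:141690090-141690389 (plus strand): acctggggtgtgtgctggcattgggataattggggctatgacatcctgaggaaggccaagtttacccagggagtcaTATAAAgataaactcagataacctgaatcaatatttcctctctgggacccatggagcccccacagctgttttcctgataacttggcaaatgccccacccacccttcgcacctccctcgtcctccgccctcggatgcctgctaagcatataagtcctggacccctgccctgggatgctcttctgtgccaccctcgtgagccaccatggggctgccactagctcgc
In Hepacam2 the capitals are 2 overlapping matches, 1 on each strand, which begin 235 bases before the start. In Slfn4 the single match begins 19 bases before the start, and in Muc2 it begins 174 bases before it. The windows of the other 2 genes with 1 start, Capn9 and Scin, hold no match, and 13.6% of all 32851 windows hold at least 1. A match is a description of the letters and no evidence of a binding site. Other short motifs were looked at in these windows and are not given.

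The RNA of the 10 genes lay mostly in Muc2-positive barcodes. There were 1073 such barcodes (12.5% of 8588), and they held 26.9% of all UMIs but 1333 of the 1638 UMIs of the 10 genes (81.4%).

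Bcas1 (ENSMUSG00000013523, chr2:170346991-170427845, minus strand), which is known in the mouse brain from myelin-forming oligodendrocytes, had 188 of 206 UMIs there (91.3%, exact binomial 95% interval 86.5% to 94.7%). Loci here and below are the whole gene, all protein-coding, in the GRCm38 annotation of GENCODE, matched by gene ID. Fer1l6 (ENSMUSG00000037106, chr15:58510048-58665092, plus strand), a member of the ferlin family of calcium-binding C2-domain membrane proteins, had 227 of 258 (88.0%). Capn9 (ENSMUSG00000031981, chr8:124576111-124618731, plus strand), a calcium-dependent cysteine protease of the calpain family, had 54 of 63 (85.7%), and Slfn4 (ENSMUSG00000000204, chr11:83175186-83190216, plus strand), a mouse Schlafen gene known mainly from interferon-stimulated myeloid cells, had 128 of 153 (83.7%). Best2 (ENSMUSG00000052819, chr8:85007202-85014531, minus strand), a calcium-activated anion channel of the bestrophin family that conducts bicarbonate in mouse colon goblet cells, had 69 of 83 (83.1%).

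The other 5 genes had lower shares, still above that of all UMIs. Rap1gap (ENSMUSG00000041351, chr4:137664726-137729861, plus strand), which switches off the small GTPase Rap1, had 149 of 184 UMIs in Muc2-positive barcodes (81.0%). Sytl2 (ENSMUSG00000030616, chr7:90302252-90410719, plus strand), a Rab27 effector known to dock mucin granules in mouse stomach surface cells, had 96 of 123 (78.0%). Hepacam2 (ENSMUSG00000044156, chr6:3457096-3498298, minus strand), an immunoglobulin-superfamily membrane protein, had 115 of 151 (76.2%). Atp2c2 (ENSMUSG00000034112, chr8:119700009-119757717, plus strand), the Golgi and secretory pathway pump for calcium and manganese called SPCA2, had 184 of 247 (74.5%). Scin (ENSMUSG00000002565, chr12:40059769-40134228, minus strand), the calcium-dependent actin-severing protein scinderin, had 123 of 170 (72.4%). Intervals on these shares cover counting error only.

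Among the 3755 genes with at least 50 UMIs and apart from Muc2, the median share in Muc2-positive barcodes was 36.6%, and these 10 genes held 10 of the 20 highest places, at ranks 1 to 5, 7, 10, 11, 13 and 16. Their median was 82.1%. The best known secreted products of goblet cells stood lower over the pooled mice: Clca1 had 71.5%, Agr2 68.7%, Zg16 and Fcgbp 67.8% each, Tff3 63.6% and Spink4 34.8%. Single mice did not all keep that order. In fish oil/pectin mouse 4 Clca1 (211 of 222 UMIs), Zg16 (362 of 381), Fcgbp (94.6%), Agr2 (93.2%), Tff3 (89.7%) and Spink4 (14 of 14 UMIs) were all above the 10 genes together (87.9%). In corn oil/cellulose mouse 4 Clca1 (99.3%) and Fcgbp (93.2%) were above the 10 genes together (92.1%), and Zg16 (91.6%), Tff3 (89.4%), Agr2 (82.1%) and Spink4 (57.1%) were below. Of the 155 Spink4 UMIs, 47 lay in fish oil/pectin mouse 2 and 47 in corn oil/cellulose mouse 1, where 21.3% of them were in Muc2-positive barcodes in each. The 6 non-members with the largest share were Sval1 (82.1%), Omp (80.8%), the sodium channel subunit Scnn1b (80%), the protease inhibitor Spink1 (75.4%), tissue factor F3 (73.1%) and the basolateral chloride importer Slc12a2 (72.6%). The 10 genes were picked for this co-detection, so their place above other lists of the same themes is no finding. Medians of those lists were 67.8% over 7 ranked genes for secreted mucus and 48.3% over 10 for vesicle traffic and exocytosis. They were 39.7% over 13 for calcium and anion handling and 35.4% over 11 for paralogs of the 10 genes. Slc12a2, from the calcium and anion list, stood above Scin.

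**Figure D1:**
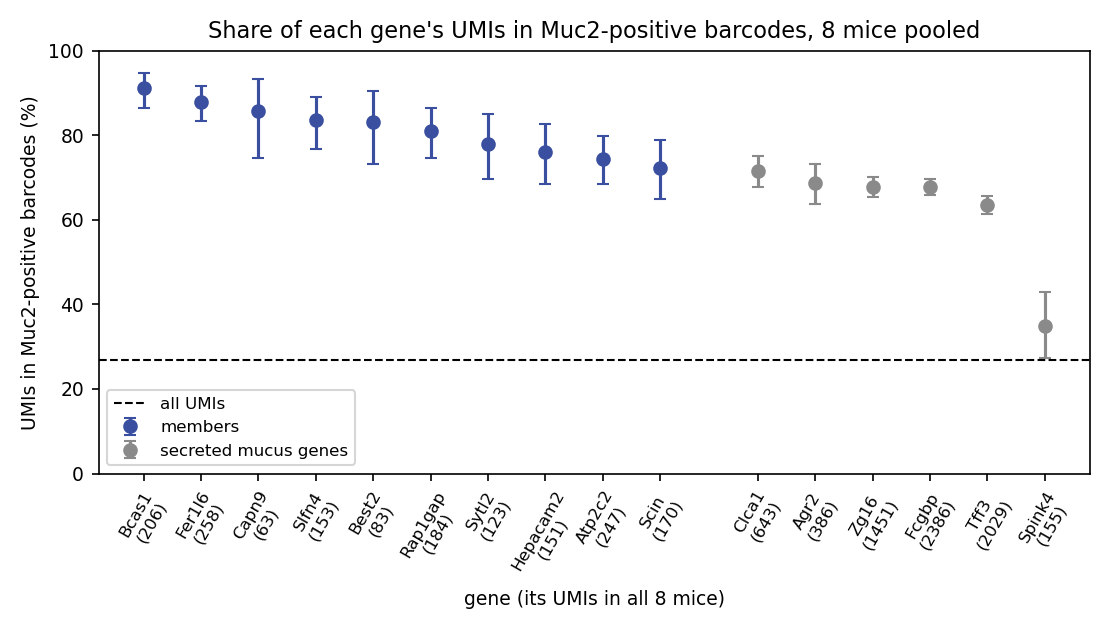
Share of each gene's UMIs (%) that lay in Muc2-positive barcodes, 8 mice pooled, with exact binomial 95% intervals; gene names carry their UMI totals and the dashed line is the share of all UMIs (26.9%). The 10 genes run from 91.3% (Bcas1) to 72.4% (Scin), and Spink4 among the secreted mucus genes is at 34.8%. Pooling hides differences between mice: in fish oil/pectin mouse 4 all 14 Spink4 UMIs lay in Muc2-positive barcodes.

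These pooled shares hide large differences between mice. In fish oil/pectin mice 1 to 4 the 10 genes together had 33.3% (3 of 9 UMIs), 45.9% (39 of 85), 72.7% (24 of 33) and 87.9% (379 of 431) of their UMIs in Muc2-positive barcodes, against 17.6% (22 of 125), 85.5% (118 of 138), 89.2% (132 of 148) and 92.1% (616 of 669) in the corn oil/cellulose group. The share of all UMIs in those barcodes was 6.66%, 30.2%, 10.3% and 37.5% in the fish oil/pectin mice and 9.97%, 11%, 62.8% and 37.2% in the corn oil/cellulose mice, lower in every mouse. Depth moved with the share: the lowest value, in corn oil/cellulose mouse 1, came with a median of 31 UMIs per Muc2-positive barcode, and the 3 highest, in fish oil/pectin mouse 4 and corn oil/cellulose mice 3 and 4, came with 598.5, 550 and 472. The part of depth in the differences between mice was not tested. Without corn oil/cellulose mouse 1 the pooled share was 86.6%, and without corn oil/cellulose mouse 4 it was 74.0%.

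**Figure D2:**
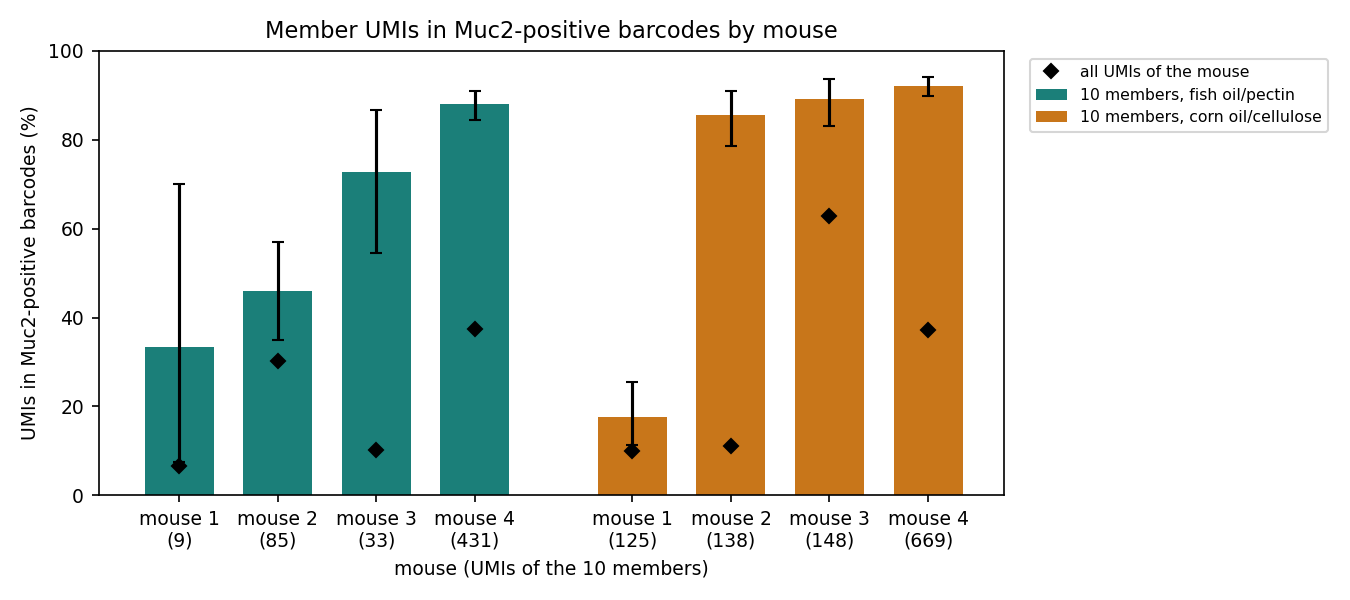
Share of the UMIs of the 10 genes (%) in Muc2-positive barcodes in each mouse (bars, exact binomial 95% intervals, UMI totals in brackets), beside the share of all UMIs of that mouse (diamonds). The bar is above the diamond in every mouse, and corn oil/cellulose mouse 1 has the lowest bar (17.6%).

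The order of the genes was only partly shared by the 3 mice with the deepest Muc2-positive barcodes. In fish oil/pectin mouse 4 Fer1l6 (98.7%), Bcas1 (97.4%) and Capn9 (95.5%) had the highest shares and Slfn4 (82.0%), Atp2c2 (76.6%) and Scin (76.4%) the lowest. In corn oil/cellulose mouse 4 Bcas1 (80 of 80 UMIs) and Capn9 (27 of 27) were at 100% and Atp2c2 was lowest at 80.5%. Slfn4 was at 95.7% there and Scin at 89.1%. In corn oil/cellulose mouse 3 Bcas1 (97.5%), Fer1l6 (96.0%) and Atp2c2 (17 of 18 UMIs, 94.4%) had the highest shares and Hepacam2 the lowest (3 of 6 UMIs). Bcas1 was thus among the 2 highest genes in each of the 3 mice, while Atp2c2 was among the 2 lowest in mouse 4 of either diet and among the 3 highest in corn oil/cellulose mouse 3.

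Detection climbed with the amount of Muc2 over the pooled mice. The upper steps came mostly from fish oil/pectin mouse 4 and corn oil/cellulose mouse 4, so Muc2 amount and mouse are not separated. Among barcodes with at least 100 UMIs, at least 1 of the 10 genes was found in 6.18% of 2119 barcodes without Muc2, 15.3% of 248 with 1 Muc2 UMI, 42.4% of 125 with 2 to 4, 81.6% of 49 with 5 to 9 and 98.9% of 91 with 10 or more. Median depth also differed, at 250 UMIs without Muc2 and 457 with 5 to 9, so each barcode was thinned to 100 UMIs. The same steps then gave 2.42%, 7.02%, 23.6%, 47.9% and 60.7%. At equal depth Bcas1 went through 0.145%, 0.900%, 7.32%, 9.47% and 12.5%, and Fer1l6 through 0.142%, 1.3%, 5.79%, 16% and 15.1%. Slfn4 had 0.257% without Muc2, 0.0435% at 1 Muc2 UMI and 8.45% at 10 or more, the first 2 of which rest on too few UMIs to be ordered. Hepacam2 had the highest value of the 10 at 1 Muc2 UMI, 2.68%. For comparison, the colonocyte chloride-bicarbonate exchanger Slc26a3 had 4.17%, 6.07%, 7.55%, 5.69% and 4.48%, and the collagen gene Col3a1 had 3.76%, 2.17%, 1.32%, 1.01% and 0%, where 0 of 91 barcodes allows up to 3.30%.

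**Figure D3:**
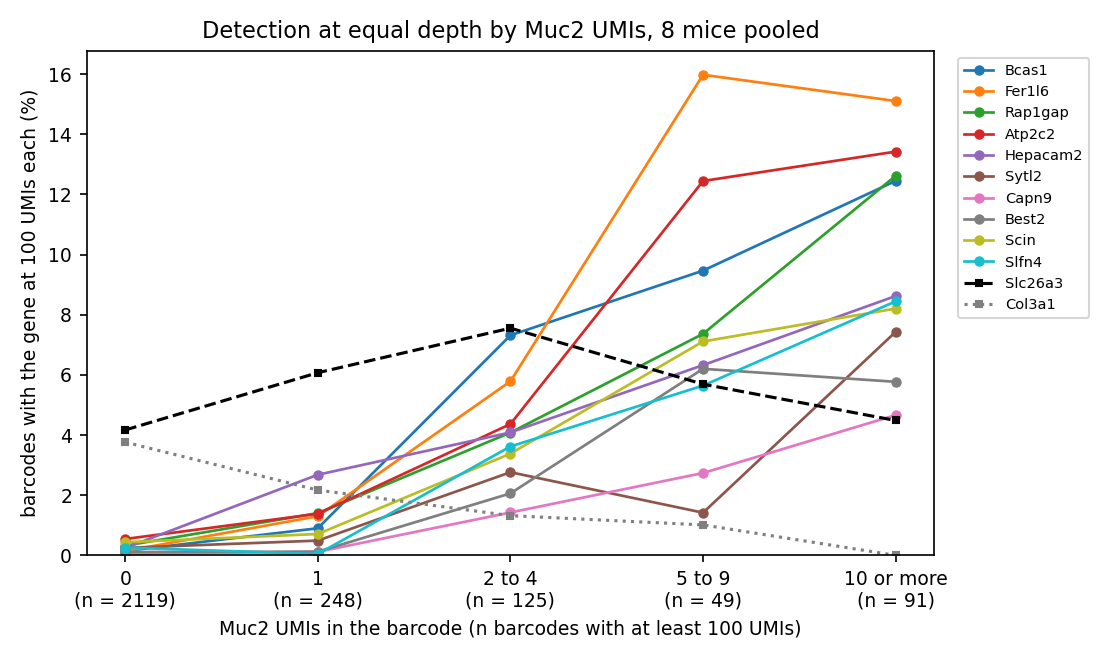
Share of barcodes (%) with at least 1 UMI of each gene after thinning to 100 UMIs, by the number of Muc2 UMIs in the barcode (8 mice pooled, barcodes with at least 100 UMIs; n under each step). Fer1l6 stands at 0.142% without Muc2 and 15.1% at 10 or more Muc2 UMIs, while Slc26a3 (dashed) stays between 4.17% and 7.55% and Col3a1 (dotted) ends at 0%.

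Inside single mice, without pooling, the difference had the same direction in all 8 but not the same size. In barcodes of at least 100 UMIs of fish oil/pectin mouse 4, any of the 10 genes was found in 55 of 80 Muc2-positive barcodes (68.8%) and 35 of 212 Muc2-negative ones (16.5%). In fish oil/pectin mouse 3 it was found in 11 of 58 (19.0%) and 3 of 444 (0.676%), in mouse 2 in 18 of 111 (16.2%) and 17 of 336 (5.06%), and in mouse 1 in 3 of 9 and 3 of 126 (2.38%). In corn oil/cellulose mouse 4 it was found in 78 of 134 Muc2-positive barcodes (58.2%) and 42 of 393 Muc2-negative ones (10.7%), and in corn oil/cellulose mouse 2 in 19 of 34 (55.9%) and 15 of 344 (4.36%). In corn oil/cellulose mouse 3 it was found in 34 of 55 (61.8%) and 12 of 51 (23.5%), and in corn oil/cellulose mouse 1 in 3 of 32 (9.38%) and 4 of 213 (1.88%). The intervals of the 2 shares overlapped in corn oil/cellulose mouse 1, at 1.98% to 25.02% with Muc2 and 0.514% to 4.74% without. These values are unthinned.

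The 10 genes were also found together. In 55 barcodes, all of them Muc2-positive, at least 5 of the 10 were detected, and those 55 barcodes held 778 of the 1638 UMIs. They came from fish oil/pectin mice 3 (1 barcode) and 4 (17) and from corn oil/cellulose mice 2 (3), 3 (5) and 4 (29). No Muc2-negative barcode had more than 3 of the genes. The barcode with all 10 came from corn oil/cellulose mouse 4 and held 61 of their UMIs, 146 Muc2 UMIs and 7546 UMIs in all. No doublet caller was run, and whether such deep barcodes hold more than 1 cell was not tested. In Muc2-positive barcodes of at least 100 UMIs, the pair found together most often was Fer1l6 (106 barcodes) and Atp2c2 (99), with 52 barcodes in common, which is 49.1% of the Fer1l6 and 52.5% of the Atp2c2 barcodes. Bcas1 and Fer1l6 shared 48, which is 55.2% of the 87 Bcas1 and 45.3% of the 106 Fer1l6 barcodes. Best2 (44) and Sytl2 (53) shared the fewest, 11 barcodes, or 25% of the Best2 and 20.8% of the Sytl2 barcodes.

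Single barcodes could carry many copies of 1 gene. The highest were 11 Fer1l6 UMIs beside 114 Muc2 UMIs and 11 Slfn4 UMIs beside 25 Muc2 UMIs, both in fish oil/pectin mouse 4, and 10 Rap1gap UMIs beside 136 Muc2 UMIs in corn oil/cellulose mouse 4. Barcodes with at least 3 UMIs of the gene were Muc2-positive for 22 of 22 Bcas1, 27 of 27 Fer1l6, 18 of 18 Atp2c2, 19 of 19 Slfn4 and 13 of 13 Scin barcodes, and for 18 of 19 Rap1gap, 11 of 12 Hepacam2 and 10 of 11 Sytl2 barcodes. Most positive barcodes had 1 UMI, from 63.3% of them for Fer1l6 to 76.1% for Capn9. A barcode without a UMI of a gene can still have held its RNA.

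The 305 UMIs outside Muc2-positive barcodes did not follow the size of the classes. Of these, 64 lay in barcodes with Clca1, Fcgbp or Zg16 and 54 in barcodes led by absorptive colonocyte markers. Another 16 lay in haemoglobin-led barcodes and 137 in barcodes of no class. Over all genes these classes held 134751, 126775, 278235 and 229286 UMIs, in that order. Of the classes named, the haemoglobin-led one thus held the most UMIs of all genes and the fewest of the 10 genes. Barcodes of no class held the most of the 10 genes. Red cells should not make these RNAs, but haemoglobin-led barcodes cannot measure free RNA in full. Barcodes with Muc2, Clca1, Fcgbp or Zg16 were taken out of that class first. At least 50% of the UMIs left in it are haemoglobin, so fewer remain for other genes. The part of free RNA in the values below was therefore not tested. Of haemoglobin-led barcodes of at least 100 UMIs, 15 of 864 had any of the 10 genes (1.74%, median depth 287.5 UMIs). Of colonocyte-led barcodes of that depth, 37 of 284 did (13.0%, median depth 371.5 UMIs). Atp2c2 accounted for 18 and Scin for 16 of the 54 UMIs in colonocyte-led barcodes. Atp2c2 was in 5.28% of those deep barcodes (95% interval 2.99% to 8.56%) and Scin in 4.23% (2.20% to 7.26%), against 0 of 864 and 0.116% in haemoglobin-led barcodes, where a count of 0 allows up to 0.347%. These shares are unthinned and pool the mice, so class and mouse are not separated. Of the 63 Atp2c2 UMIs outside Muc2-positive barcodes, 15 lay in fish oil/pectin mouse 4 and 23 in corn oil/cellulose mouse 4. Of the 47 such Scin UMIs, 13 and 5 lay in those mice and 13 in corn oil/cellulose mouse 1. Bcas1 had 0 UMIs in colonocyte-led barcodes, where a count of 0 of 284 allows up to 1.06%, and Capn9 had 0 as well.

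Other cell classes held few. Sytl2 had 6 of the 9 UMIs found in fibroblast-led barcodes, and Hepacam2 had 4 of the 6 in the 2 tuft-led barcodes. Rap1gap had 3 of the 4 UMIs in enteroendocrine-led barcodes. Slfn4 had 0 UMIs in the 20 myeloid-led barcodes of at least 100 UMIs, which allows a share of up to 15.0%, so its detection in those cells could not be judged at this depth.

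The diet comparison asks whether these genes differ between fish oil/pectin and corn oil/cellulose mice, in the whole section and relative to Muc2. None of the 10 passed the test. Counts were summed per mouse and compared with the edgeR quasi-likelihood test with Benjamini-Hochberg adjustment over all genes tested. In the sums over all barcodes it called 0 of 4471 genes (0%), with 107 at an unadjusted p under 0.05 (2.39%), and DESeq2 also called 0, with 139. The adjusted p was 1.00 for every gene named in this comparison. In such sums, fewer goblet cells and less RNA per cell cannot be told apart.

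The ferlin Fer1l6, the Rab27 effector Sytl2 and the actin-severing Scin are taken first, and their roles in goblet cells were not tested. Fer1l6 had 28.8, 77.7, 59.6 and 384 counts per 1000000 UMIs of the mouse (CPM) in fish oil/pectin mice 1 to 4. It had 93.2, 300.2, 307 and 350.3 in corn oil/cellulose mice 1 to 4. In CPM only fish oil/pectin mouse 4 was high in its group, and it lay above all 4 corn oil/cellulose mice, so the groups overlapped. Unless stated otherwise, CPM here and below leave out the TMM factors that edgeR applies to library size. These ran from 0.348 in fish oil/pectin mouse 3 to 1.78 in fish oil/pectin mouse 4. With them Fer1l6 was at 25.1, 98.0, 171 and 215 in fish oil/pectin mice, against 86.0, 282, 244 and 288 in corn oil/cellulose mice. The edgeR log2 fold change was -0.71 (SE 0.55). Sytl2 had 115, 32.4, 19.9 and 159 CPM in fish oil/pectin mice, against 57.0, 80.1, 98.3 and 212 in corn oil/cellulose mice. The highest value was a corn oil/cellulose mouse, but the 115 of fish oil/pectin mouse 1 rests on 4 UMIs, and the log2 fold change was -0.45 (SE 0.51). Scin had 0, 117, 13.2 and 274 CPM in fish oil/pectin mice, against 93.2, 140.1, 209 and 187 in corn oil/cellulose mice. In CPM fish oil/pectin mice spanned more than the whole corn oil/cellulose range. With the TMM factors they did not, with highest values of 154 in fish oil/pectin mice and 166 in corn oil/cellulose mice. The log2 fold change was -0.39 (SE 0.55).

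Rap1gap, the Rap1 inactivator, had 28.8, 45.3, 19.9 and 174 CPM in fish oil/pectin mice, against 93.2, 210.2, 49.1 and 387 in corn oil/cellulose mice. Its log2 fold change of -1.28 (SE 0.58) had an unadjusted p of 0.0384, and it was -0.65 (unadjusted p = 0.297) without corn oil/cellulose mouse 4. The groups overlapped, with fish oil/pectin mouse 4 above corn oil/cellulose mice 1 and 3. Bcas1 had 0, 38.9, 19.9 and 194 CPM in fish oil/pectin mice, against 67.3, 250.2, 491 and 326 in corn oil/cellulose mice. The single overlap was fish oil/pectin mouse 4 above corn oil/cellulose mouse 1. Bcas1 had only 0, 6 and 3 UMIs in fish oil/pectin mice 1, 2 and 3. Its log2 fold change of -1.86 (SE 0.61) had the smallest p of the 10 (unadjusted p = 0.00682). That value of Bcas1 was known when the genes were picked and is no independent evidence. With 1 mouse left out it ranged from -2.55 (without fish oil/pectin mouse 4) to -1.54 (without corn oil/cellulose mouse 3).

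Among the ion genes, Atp2c2 had 28.8, 45.3, 13.2 and 319 CPM in fish oil/pectin mice, against 93.2, 190.2, 221 and 481 in corn oil/cellulose mice. The value of fish oil/pectin mouse 4 was above 3 of the corn oil/cellulose mice, and the other 3 fish oil/pectin mice were below all of them. Those 3 values rest on only 1, 7 and 2 Atp2c2 UMIs. The log2 fold change was -1.23 (SE 0.57, unadjusted p = 0.0447), and with 1 mouse left out it ranged from -2.27 (fish oil/pectin mouse 4 dropped) to -0.67 (corn oil/cellulose mouse 4 dropped, unadjusted p = 0.282). Best2 was too sparse for this test, with 0, 5, 1 and 19 UMIs in fish oil/pectin mice and 4, 3, 9 and 42 in corn oil/cellulose mice. Capn9 was also below the count filter, with 0, 1, 2 and 22 UMIs in fish oil/pectin mice and 4, 0, 7 and 27 in corn oil/cellulose mice. For both, counts of 0 in fish oil/pectin mouse 1 allow up to 86.3 CPM.

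Hepacam2 had 57.5, 129.6, 19.9 and 189 CPM in fish oil/pectin mice, against 72.5, 150.1, 73.7 and 216 in corn oil/cellulose mice, with a log2 fold change of -0.14 (SE 0.50). Slfn4 had 0, 25.9, 33.1 and 249 CPM in fish oil/pectin mice, against 36.3, 30.02, 172 and 285 in corn oil/cellulose mice, with a log2 fold change of -0.51 (SE 0.72). In both, fish oil/pectin mouse 4 exceeded 3 of the corn oil/cellulose mice in CPM. With the TMM factors the highest fish oil/pectin value of Hepacam2 was in mouse 2 (163, against 106 in mouse 4). Slfn4 belongs to a family of close relatives, and whether its probes can also bind their RNA is not given in the sources used here.

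**Figure D4:**
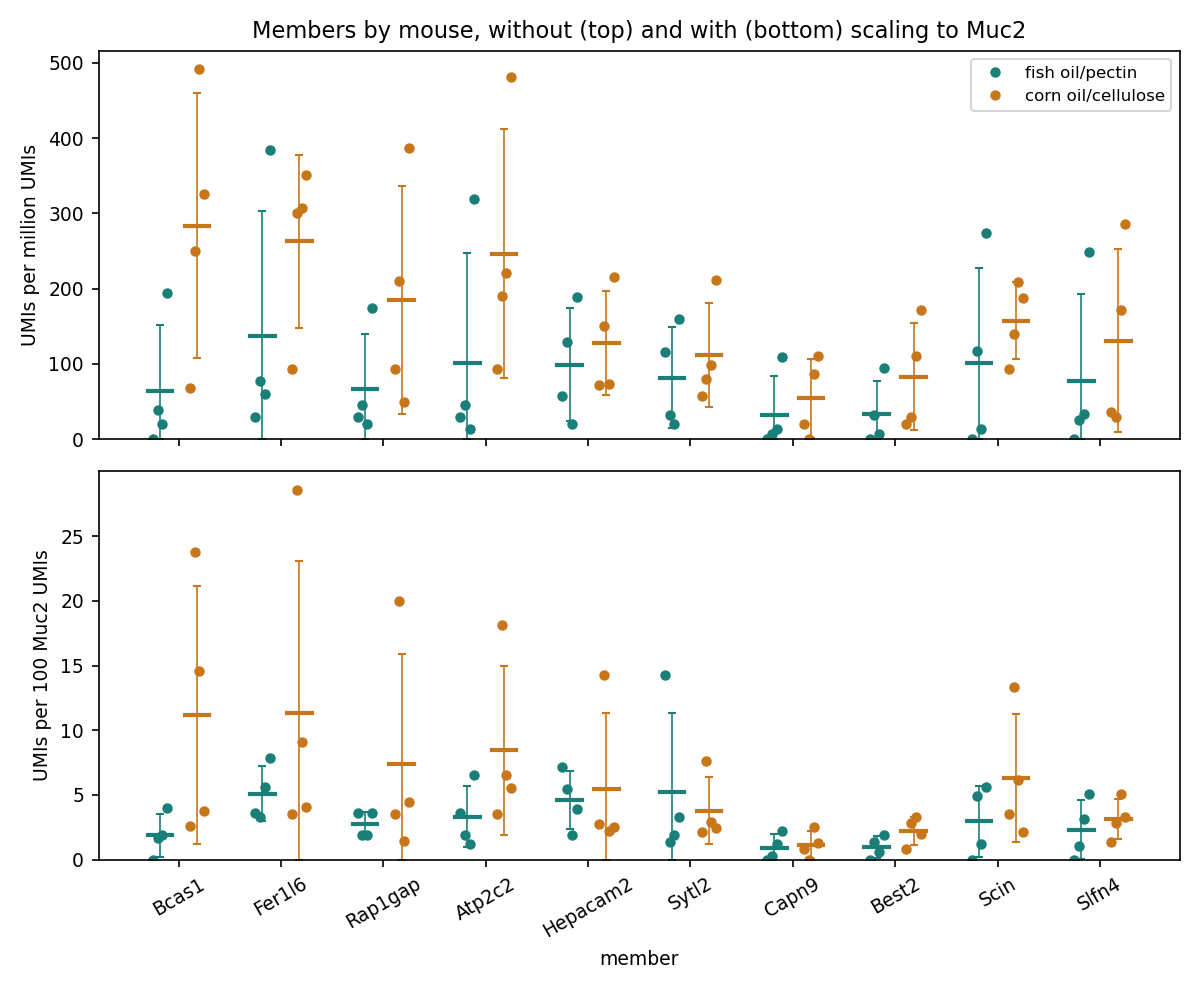
Levels of the 10 genes by mouse as CPM (top) and as UMIs per 100 Muc2 UMIs (bottom); points are mice, thick lines the mean and thin bars 1 SD (n = 4 per diet), cut at 0. At the top, where TMM factors are not applied, fish oil/pectin mouse 4 is the high point of its diet in all 10 genes. At the bottom, corn oil/cellulose mouse 2 is the high point of its diet for Bcas1, Fer1l6, Rap1gap, Atp2c2, Hepacam2, Sytl2 and Scin.

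All 8 tested genes had a fold change below 0 in the all-barcode sums, with a median of -0.61, while 52.3% of all tested genes were below 0. None of the 10 genes had groups that did not overlap, whereas 33 of 4471 genes (0.738%) had every fish oil/pectin mouse below every corn oil/cellulose mouse. Muc2 itself had 806, 2358, 1059 and 4878 CPM in fish oil/pectin mice, against 2615, 1051, 3378 and 8636 in corn oil/cellulose mice, with a log2 fold change of -0.48 (SE 0.95). The goblet marker list took 0.268%, 0.900%, 0.391% and 1.21% of UMIs in fish oil/pectin mice 1 to 4, where the 10 genes summed to 259, 551, 218 and 2147 CPM, and 0.969%, 0.247%, 0.995% and 1.74% in corn oil/cellulose mice 1 to 4, where they summed to 647, 1381, 1818 and 2725 CPM. Both were highest in mouse 4 of each diet, but corn oil/cellulose mouse 2 had the lowest goblet share of its diet and more than corn oil/cellulose mouse 1 of the 10 genes. The part of goblet content in the diet values was not tested. Values scaled to Muc2 are therefore given next.

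Scaled to Muc2, the test called 1 of 4470 genes (0.0224%), with 49 at an unadjusted p under 0.05 (1.1%), and none of the 10. The called gene, the desaturase Scd1, is not among them and was higher in fish oil/pectin mice. Per 100 Muc2 UMIs, Bcas1 had 0, 1.65, 1.88 and 3.98 UMIs in fish oil/pectin mice, against 2.57, 23.8, 14.5 and 3.77 in corn oil/cellulose mice. Fish oil/pectin mouse 4 exceeded 2 of the corn oil/cellulose mice, and corn oil/cellulose mouse 2, with 105 Muc2 UMIs, carried the highest ratio. The log2 fold change was -2.22 (SE 0.98, adjusted p = 1.00). Fer1l6 had 3.57, 3.30, 5.63 and 7.87 in fish oil/pectin mice, against 3.56, 28.6, 9.09 and 4.06 in corn oil/cellulose mice, with a log2 fold change of -1.03 (SE 0.94). The highest fish oil/pectin ratio, in mouse 4, was above 2 of the corn oil/cellulose mice.

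Rap1gap had 3.57, 1.92, 1.88 and 3.58 UMIs per 100 Muc2 UMIs in fish oil/pectin mice, against 3.56, 20, 1.45 and 4.48 in corn oil/cellulose mice, with a log2 fold change of -1.39 (SE 0.98). Atp2c2 had 3.57, 1.92, 1.25 and 6.54 in fish oil/pectin mice, against 3.56, 18.1, 6.55 and 5.57 in corn oil/cellulose mice, with a log2 fold change of -1.24 (SE 0.96). For both, the highest ratio of all was in corn oil/cellulose mouse 2. The other fold changes were -0.74 for Scin, -0.23 for Hepacam2, -0.16 for Slfn4 and 0.10 for Sytl2, with SE from 0.94 to 1.04. The median of the 8 tested genes was -0.89 and 7 of 8 were below 0, where 46.3% of all tested genes were. Best2 had 0, 1.37, 0.625 and 1.94 UMIs per 100 Muc2 UMIs in fish oil/pectin mice, against 0.792, 2.86, 3.27 and 1.98 in corn oil/cellulose mice. Each of its fish oil/pectin values was below 3.27, and 2 of them lay above the lowest corn oil/cellulose value.

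The values scaled to Muc2 depended much on 1 animal, for these genes and for all genes. The median of the 8 genes was -0.13 without corn oil/cellulose mouse 2, and Fer1l6 was at -0.04, Rap1gap at -0.30 and Bcas1 at -1.53. The median of all tested genes also rose, from 0.06 with every mouse to 0.55 without that one. Of all tested genes, 19.5% were then below 0, against 46.3% with every mouse. Corn oil/cellulose mouse 2 had 131 UMIs of the 10 genes per 100 Muc2 UMIs, against 24.8, 53.8 and 31.6 in the other corn oil/cellulose mice and 32.1, 23.4, 20.6 and 44.0 in fish oil/pectin mice. Over the 10 genes together the ratio was 30.04 ± 10.5 in fish oil/pectin mice and 60.4 ± 49.0 in corn oil/cellulose mice (SD, n = 4 each).

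Within Muc2-positive barcodes alone, which need only 1 Muc2 UMI and also held RNA of other cell types such as Slc26a3, the test called 0 of 983 genes (0%), with 57 at an unadjusted p under 0.05 (5.8%), and DESeq2 called 0, with 40. Bcas1 had a log2 fold change of -1.72 (SE 0.71, edgeR adjusted p = 0.679), Rap1gap -1.51 (SE 0.69, adjusted p = 0.800) and Atp2c2 -1.22 (SE 0.67, adjusted p = 0.978). Fish oil/pectin mouse 1 gave this fit only 16 barcodes with 2316 UMIs. Of these, 3 were of the 10 genes and none was of Bcas1, Rap1gap or Atp2c2. Without that mouse the fold changes of Bcas1, Rap1gap and Atp2c2 were -1.59, -1.39 and -1.09. Best2, which could be tested here, was at -0.84 (SE 0.60), followed by Fer1l6 (-0.68), Scin (-0.63), Sytl2 (-0.57), Slfn4 (-0.44) and Hepacam2 (-0.12). All 9 tested genes were below 0 with a median of -0.68, where 59.3% of all tested genes were below 0 and their median was -0.13. Barcodes with at least 5 Muc2 UMIs and 100 UMIs in all gave 16.2, 22.8, 69.5 and 99.9 UMIs of the 10 genes per 10000 UMIs in fish oil/pectin mice 1 to 4 (1, 6, 6 and 41 barcodes), against 0, 115, 39.1 and 97.0 in corn oil/cellulose mice 1 to 4 (1, 5, 16 and 64 barcodes). The 2 mice with the most such barcodes, 1 of each diet, had close values.

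**Figure D5:**
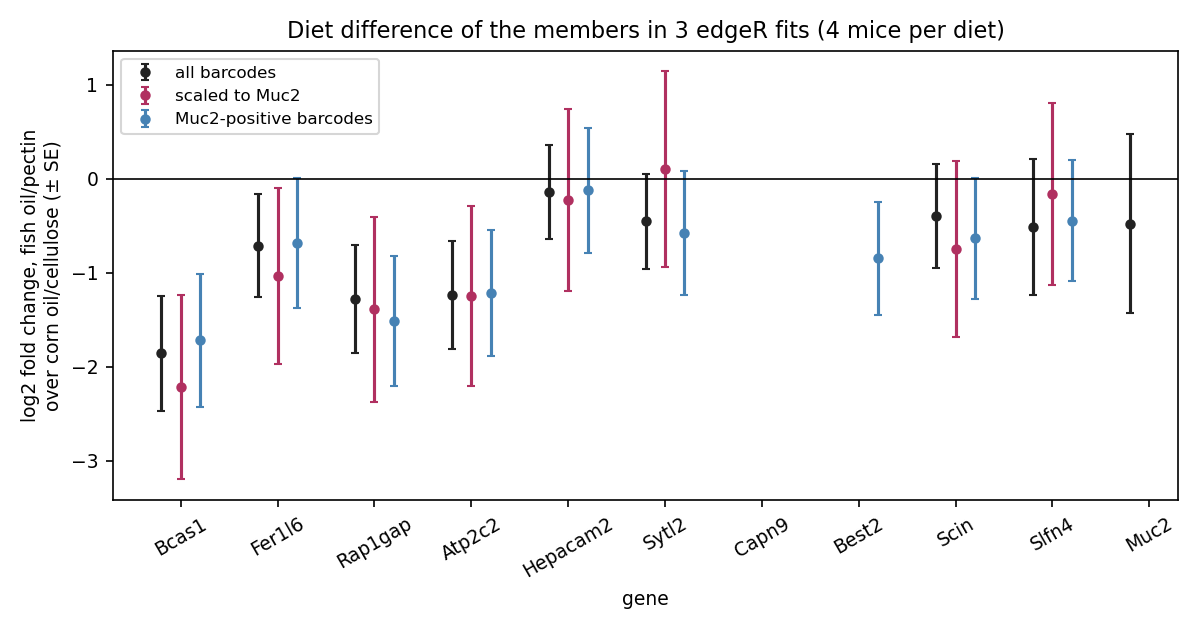
Diet log2 fold change (fish oil/pectin over corn oil/cellulose, bars ± 1 SE, 4 mice per diet) of the 10 genes and Muc2 in 3 edgeR fits; Best2 was tested in Muc2-positive barcodes alone and Capn9 in none. Bcas1 is lowest in each fit (-1.86, -2.22 and -1.72), and no gene passed the test.

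Within pools the direction depended on the gene and the scale. The first values are log2 CPM (pseudocount 0.5 UMIs), here with the TMM factors applied to library size. The fish oil/pectin minus corn oil/cellulose difference of Bcas1 was -3.86 in pool 1 and -1.88 in pool 2. That of Rap1gap was -1.29 and -2.11, that of Atp2c2 -1.92 and -2.30, and that of Fer1l6 -2.29 and -0.87. Sytl2 was above 0 in pool 1, at 0.66, and at -1.44 in pool 2. The pool 1 values rest on fish oil/pectin mouse 1 alone. Those of Bcas1 and Scin are set by the pseudocount, since that mouse had 0 UMIs of each. The others rest on few UMIs of that mouse: 1 each of Fer1l6, Rap1gap and Atp2c2, 2 of Hepacam2 and 4 of Sytl2. A count of 0 in that mouse allows up to 86.3 CPM without the TMM factors. Muc2 differed by -1.38 and -1.28 on the same scale. Relative to Muc2, Bcas1 was at -2.49 and -0.60 and Atp2c2 at -0.55 and -1.02, while Fer1l6 was at -0.92 and 0.41, Scin at -1.96 and 0.70, Sytl2 at 2.04 and -0.16, and Rap1gap at 0.09 and -0.83. Hepacam2 was above 0 relative to Muc2 in both, at 0.92 and 0.53. With pool added as a term, 0 of 4471 genes were called in all barcodes. The median of the 8 genes was -1.50 there, and that of all tested genes was -0.04. Scaled to Muc2 with the pool, the median of the 8 genes was -0.31. That of all tested genes was 1.25, with 4.25% of them below 0. There 55 genes were called (1.23%), all higher in fish oil/pectin mice. Without the count filter 4 genes were called in all barcodes (0.0221%), 8 scaled to Muc2 (0.0442%) and 2 in Muc2-positive barcodes (0.0146%). None of these calls was 1 of the 10 genes.

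Neighbouring gene lists showed no called gene in the all-barcode sums. Vesicle traffic and exocytosis had 9 of 21 genes tested, 0 called, 8 below 0 and a median of -0.59. Among its genes of smallest p were the Rab27 effector Sytl1 (-0.99, SE 0.64) and the granule SNARE Vamp8 (-0.60, SE 0.48). Secreted mucus had 7 of 10 tested, 2 below 0 and a median of 0.20, with Spink4 at 0.99 (SE 0.79), Agr2, a disulfide isomerase needed for mucin folding, at 0.59 (SE 0.62), Fcgbp at -0.04 and Tff3 at 0.02. Calcium and anion handling had 13 of 20 tested, 9 below 0 and a median of -0.07, with the sodium bicarbonate cotransporter Slc4a4 at -0.83 (SE 0.53), the calcium sensor Stim1 at -0.80 (SE 0.53) and the sodium-proton exchanger Slc9a3 at 1.06 (SE 1.15). Paralogs of the 10 genes had 11 of 28 tested, 7 below 0 and a median of -0.16. Among them were Rap1gap2 at -1.05 (SE 0.58), the ferlin Myof at -0.56 (SE 0.57), Gsn, the gelsolin relative of Scin, at 0.08 (SE 0.58), and Vil1, villin, at 0.35 (SE 0.52).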

How the data were processed

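Libraries of 8 mouse colons, 1 per mouse, were compared between diets. The authors made the deposited matrices with Cell Ranger 8.0.0, per the file headers and processing notes of the submitters, which name the builds mm10 and GRCm39 with no role for each. The deposited values are raw counts of UMIs per gene and barcode for 19065 genes and 8588 barcodes, with no normalization, and the barcode and feature files hold names. Whether barcodes were filtered further is not given in the sources used here. Depth was 34758 to 245476 UMIs per library. No 2 libraries were copies (chi-square per degree of freedom at least 3.40 over 28 pairs). Doublets were not removed, and the files hold no probe sequences.

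Raw counts were summed per mouse over all barcodes and over Muc2-positive barcodes, and tested with edgeR 4.0.16 in R 4.3.3 (filterByExpr minimum count 5, TMM, robust quasi-likelihood fit, p adjusted by Benjamini-Hochberg over all genes tested and called under 0.05). The Muc2-scaled fit used each mouse's Muc2 UMIs as the offset instead. Alternatives were DESeq2 1.42.0, other scalings and filters, the pool as a covariate, a block by mouse number and leaving out each mouse. Labels give separate mice, so p-values measure the spread between mice. Shares carry exact binomial intervals at 95%, and a count of 0 allows up to 3 counts; both cover counting error only. Barcodes were thinned by the exact expected detection at 100 UMIs.

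Muc2-negative barcodes were sorted in this order: with Clca1, Fcgbp or Zg16; haemoglobin-led, with at least 50% of UMIs from 8 haemoglobin genes; and led by the marker list with the most UMIs, at least 2. The members and all lists were chosen with earlier results of these data known. Named genes are the 10 members, Muc2, the 6 non-members with the largest share in Muc2-positive barcodes, and in each of the 4 lists at most the 3 genes of smallest p and the 3 with most UMIs; Clca1, Zg16, Slc26a3, Col3a1 and Scd1 are given as comparisons outside that rule.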

Additional observations from a re-analysis of the deposited data

Results flagged for a closer look

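A mouse was marked where its distance to the nearest of the other 3 mice of its diet exceeded Dixon's 95% critical share of the group's range. Of 62 groups examined, 14 were marked, where chance marks about 1 in 20. The marks share mice and genes and are not independent.

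Fish oil/pectin mouse 4 was marked as high, in counts per 1000000 UMIs (CPM), for Fer1l6 (384, next mouse 77.7), Rap1gap (174, next 45.3), Atp2c2 (319, next 45.3), Capn9 (109.6, next 13.2) and Slfn4 (249, next 33.1). It had the largest median depth (528.5 UMIs per barcode) and the largest Muc2 level of its diet (4878 CPM). These marks are on plain CPM. With the TMM factors of the edgeR fit, Fer1l6 was at 215 in this mouse and 171 in fish oil/pectin mouse 3. The part of depth or goblet content in these marks was not tested.

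Corn oil/cellulose mouse 1 was marked as low for the share of UMIs in Muc2-positive barcodes for Bcas1 (23.1%, nearest 88.0%), Fer1l6 (5.56%, nearest 96.0%), Best2 (0%, from 4 UMIs), Slfn4 (14.3%, nearest 85.7%) and the 10 genes together (17.6%, nearest 85.5%). Its median depth was 26 UMIs per barcode, and the part of that depth was not tested.

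Corn oil/cellulose mouse 2 was marked as high per 100 Muc2 UMIs for Rap1gap (20, next 4.48), Hepacam2 (14.3, next 2.77) and Sytl2 (7.62, next 2.91). It had 105 Muc2 UMIs, the fewest of its diet. Fish oil/pectin mouse 1 was marked as high for Sytl2 per 100 Muc2 UMIs (14.3, next 3.27), from 4 Sytl2 and 28 Muc2 UMIs.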

How the results depend on the processing

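No alternative called any of the 10 genes. Of their alternative fold changes 373 kept the sign and 21 did not, and all 143 alternative shares in Muc2-positive barcodes moved by less than the SD between mice, which is wide (29.1 percentage points for the 10 genes together, whose share was 74.0% to 86.6% with 1 mouse left out and 65.5% as the mean of the mice). Called genes in all barcodes numbered 4 without the count filter and 0 to 1 with 1 mouse left out. Scaled to Muc2, where 1 gene was called, they numbered 0 with 7 mucus genes as the scale, with barcodes of at least 100 UMIs, with a minimum count of 10 or with the block, 8 without the count filter, 55 with the pool and 0 to 1 with 1 mouse left out (0 without fish oil/pectin mouse 1 and without corn oil/cellulose mice 1, 3 and 4). In Muc2-positive barcodes 3 were called with at least 2 Muc2 UMIs, 1 with library size alone, 2 without the count filter and 0 to 25 with 1 mouse left out: 25 when fish oil/pectin mouse 4 was dropped, 6 when corn oil/cellulose mouse 1 was, and 3 when corn oil/cellulose mouse 2 was. The causes were not tested.

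Log2 fold changes that changed sign with 1 mouse left out ranged, in all barcodes, from -0.53 to 0.22 for Hepacam2, -0.73 to 0.084 for Sytl2 and -1.39 to 0.30 for Slfn4, above 0 when corn oil/cellulose mouse 4 was dropped. Scaled to Muc2 they ranged from -0.50 to 0.76 for Hepacam2, -0.64 to 0.53 for Sytl2 and -0.87 to 0.16 for Slfn4, and in Muc2-positive barcodes from -0.50 to 0.43 for Hepacam2 and -0.77 to 0.10 for Slfn4. Scaled to Muc2, Hepacam2 was at 0.53 with the pool and 0.040 with the block, Scin at 0.071 with the pool, and Sytl2 at -0.48 with barcodes of at least 100 UMIs and -0.18 with 7 mucus genes. In Muc2-positive barcodes Hepacam2 was at 0.0014 with a minimum count of 10 and 0.20 with at least 2 Muc2 UMIs.

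Best2 and Capn9 were below the count filter in both all-barcode fits and Capn9 in all 3, so they have no main value to compare there. Some alternatives did test them. In all barcodes Best2 ranged from -1.24 to -0.76 over 7 settings and Capn9 from -0.77 to -0.12 over 6. In Muc2-positive barcodes Capn9 ranged from -0.60 to -0.21 over 5 settings. Scaled to Muc2 without the count filter, Best2 was at -0.72 and Capn9 at -0.03. Library size alone put the median of all genes at -0.19, against -0.03. Deviations of same-numbered mice of the 2 diets had no common direction (r = 0.19, -0.20, -0.08 and 0.26). The labels do not say whether the numbers pair mice, and these values cannot settle it. The replicate block left 0 genes called in each of the 3 fits. Depth limits Best2 and Capn9 most, with 83 and 63 UMIs in all.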
